A study of Mus musculus with 18 samples.

Results

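The data describe what the loss of Helios did on average in 3 neighbouring populations of blood-forming cells of the mouse, measured as 1 effect rather than 1 population at a time. Helios, the product of Ikzf2, belongs to the Ikaros family of zinc-finger transcription factors. The effect was the mean of the KO minus WT differences in LT-HSC, MPP3 and MPP4, with population in the model and the 3 libraries of an animal linked, and all 18 of the 18 libraries of the series entered it. The groups were Helios KO and WT, with 3 animals of 10 weeks in each, and every animal gave 1 library of each population, so that 9 KO libraries were set against 9 WT libraries. All 3 populations were sorted from bone marrow as lineage-negative, Sca1-positive and Kit-positive cells. LT-HSC, long-term hematopoietic stem cells, were CD48-negative and CD150-positive. MPP3, multipotent progenitors biased to myeloid fates, were CD48-positive, CD150-negative and Flt3-negative, and MPP4, biased to lymphoid fates, were CD48-positive, CD150-negative and Flt3-positive. The exons removed by the KO allele, the strain background of the KO and WT mice and whether they were littermates are not given in the labels. That the libraries of 1 genotype and number came from the same animal is read from their titles.

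Ikaros-family proteins bind DNA through zinc fingers, most often at sites with a GGGAA core, and pair with each other through fingers at their C-terminal end. They recruit chromatin complexes, among them NuRD, that can silence or keep open their target genes. In blood cells the family is best known for its part in lymphoid development, and Helios is abundant in stem cells and in subsets of T cells.

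Libraries held 21053050 to 45410959 counted reads, on 17362 to 20272 detected genes. Fewer genes were detected in libraries numbered 1 (17362 to 18896) than in those numbered 2 and 3 (19185 to 20272), and every group had 1 library of every number. Some libraries carried transcripts of other cell types. Mature neutrophil genes summed to 3.71 to 9.39 CPM (read counts scaled to library size) over KO libraries of LT-HSC, against 3.86, 79.0 and 244 CPM in WT 1, WT 2 and WT 3. Mature B and plasma cell genes summed to 3230 CPM in MPP3 KO 1 and to 3850 and 4050 CPM in MPP3 WT 1 and WT 2, against 332 to 478 CPM in the other MPP3 libraries. The average effect and the difference between populations are given with and without these libraries where that changed a call. Calls in single populations were not checked without them. The genes of the sorting gates were 5 of 5 below 0 in the average effect, with a median log2 effect of -0.22 against 0.01 over all tested genes, and none of the 5 passed the test. Flt3, the cytokine receptor that divides MPP3 from MPP4, had a log2 average effect of -0.22 ± 0.13, and Slamf1, which encodes CD150, -0.89 ± 0.49 (limma adjusted p = 0.796 and 0.789). By population Slamf1 stood at -0.26, -0.48 and -1.94 in LT-HSC, MPP3 and MPP4, and in MPP4 it was near the floor, with 0.71, 0.56 and 0.00 CPM in KO, against 1.53, 0.43 and 0.65 CPM in WT. Its average was -0.38 without MPP4 and -0.28 without KO 3, and that of Flt3 was -0.09 without KO 1.

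Over the 3 populations together 6 of 16325 tested genes passed, which is a share of 0.0368%. Of these, 3 were higher in KO cells (Wdfy1, Selp and Usp37) and 3 were lower (Ikzf2, Dock10 and Rbm5), a share of 0.0184% in each direction. Limma's moderated test on voom weights was used, with the animal as a random block and Benjamini-Hochberg adjustment over all tested genes at 0.05. In each of the 6 genes every KO library lay on one side of every WT library of its population, in all 3 populations. That pattern was counted after the values had been seen, and it was shown by 40 tested genes in all, 17 higher and 23 lower in KO cells (0.245% of the tested genes). At an unadjusted p under 0.05 there were 587 higher and 529 lower genes (6.84% of the tested genes). The number of genes past the threshold differed between fits. EdgeR's quasi-likelihood test gave 41 genes (0.251%) and DESeq2 286 of the 13466 that it adjusted (2.12%), both with all 6 among them. These fits differ from limma's in the tool and in taking the libraries of an animal as unlinked, and which of these moved the count was not tested. A fit to 1 mean per animal gave 3 (Wdfy1, Dock10 and Ikzf2, 0.0184%). A fit with the replicate number as a further term gave 82 (0.502%), 50 higher and 32 lower, the 6 included. Of the 82, 10 have predicted, clone-named or pseudogene symbols, all 10 higher, and 28 had KO and WT libraries apart in all 3 populations. The adjusted p of that fit is given below, as that with the number as a block, for each gene named as not passing that it called.

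Ikzf2, the deleted gene, lies on chromosome 1 from 69531214 to 69687245 (mm10, ENSMUSG00000025997). Among LT-HSC, its level was 11.13, 6.56 and 11.17 CPM in KO, against 39.83, 42.02 and 39.35 CPM in WT. In MPP3 KO libraries were at 19.03, 19.03 and 23.95 CPM, against 42.58, 65.56 and 38.29 CPM for WT libraries. In MPP4 KO libraries were at 3.55, 11.14 and 10.21 CPM, against 37.13, 34.05 and 27.07 CPM for WT libraries. All 9 KO libraries were below the WT libraries of their population, and all 9 still carried reads on the gene. The average log2 effect was -1.84 ± 0.21 (SE, limma adjusted p = 0.000551), a level in KO cells of 0.28 times that in WT cells. In the same model it was -2.13 in LT-HSC, -1.20 in MPP3 and -2.18 in MPP4, and the difference between populations did not pass (limma adjusted p = 0.712). Without LT-HSC the average was -1.68 (limma adjusted p = 0.0543).

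**Figure D1:**
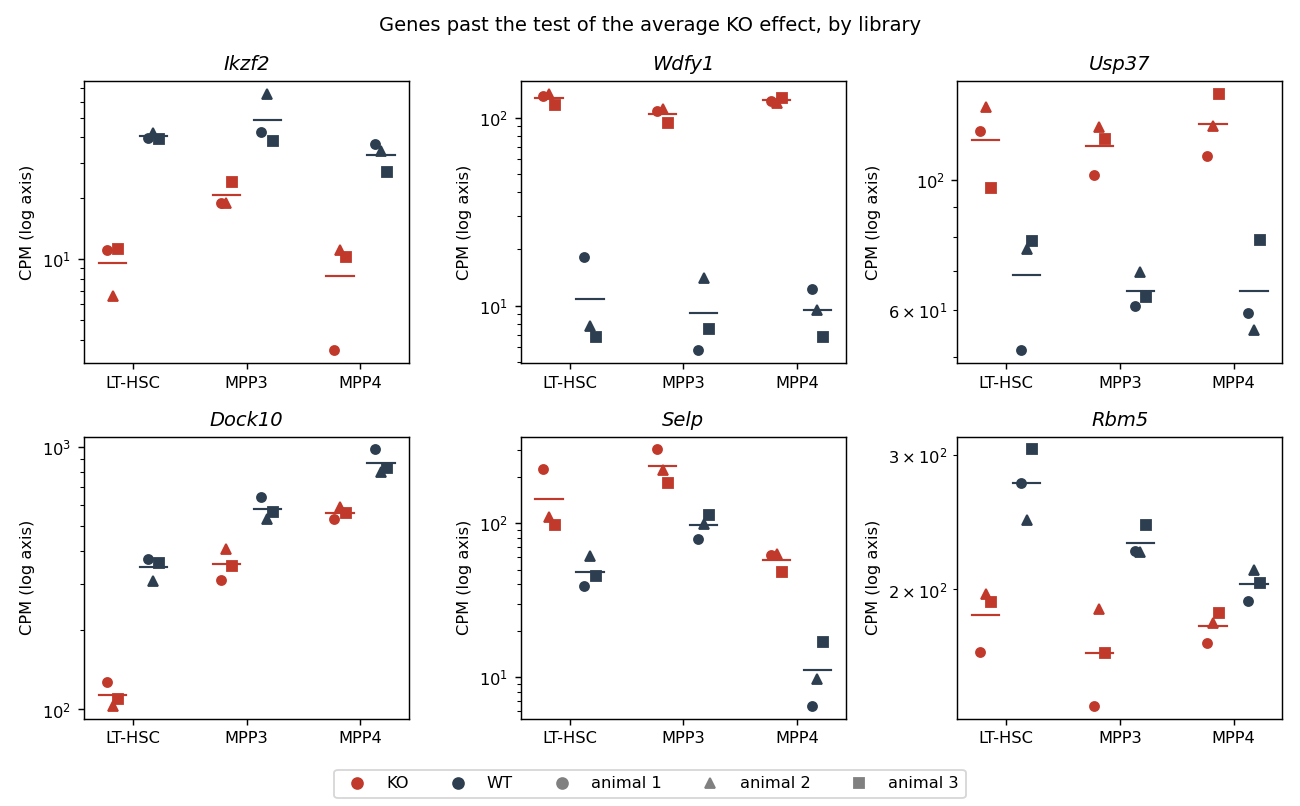
Levels of the 6 genes past the test of the average effect, in CPM on a log axis, by population. Each point is 1 library (KO left of WT, the symbol gives the animal's number) and each line the mean of 3 libraries. In every panel and population the 3 KO libraries lie apart from the 3 WT libraries, below them for Ikzf2, Dock10 and Rbm5 and above them for Wdfy1, Usp37 and Selp.

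Wdfy1 had the largest average effect among the 6. The gene encodes an endosomal FYVE-domain protein that takes part in Toll-like receptor signalling, and it lies on chromosome 1 from 79702262 to 79776143, 10.13 Mb from Ikzf2 between gene centres. LT-HSC KO libraries had 130.60, 133.63 and 116.00 CPM of Wdfy1, against 18.06, 7.75 and 6.79 CPM in WT. MPP3 KO libraries had 108.43, 111.25 and 93.97 CPM, against 5.79, 13.98 and 7.48 CPM in WT, and MPP4 KO libraries 123.10, 119.18 and 127.38 CPM, against 12.20, 9.44 and 6.80 CPM in WT. Its level was thus nearly even over the populations in each genotype, and the KO libraries stood above 90 CPM throughout. The average log2 effect was 3.72 ± 0.19, or 13.2-fold (limma adjusted p = 4.62e-09). By population it was 3.78, 3.65 and 3.75 in LT-HSC, MPP3 and MPP4, with an adjusted p of 0.995 for the difference between them. Wdfy1 passed under all 23 other settings that were run, with a log2 effect from 3.38 to 3.82.

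Usp37, a ubiquitin-specific protease that stabilises cell cycle proteins, lies on chromosome 1 from 74435511 to 74544284, 4.88 Mb from Ikzf2. In LT-HSC it had 121.45, 133.55 and 97.01 CPM in KO libraries, against 51.26, 76.46 and 78.91 CPM in WT libraries. In MPP3 KO libraries were at 102.24, 123.35 and 117.43 CPM, against 61.02, 69.71 and 63.13 CPM for WT libraries, and in MPP4 KO libraries were at 110.01, 123.55 and 140.45 CPM, against 59.27, 55.57 and 79.15 CPM for WT libraries. The groups did not overlap in any population, and the gap was of like size in each. The average log2 effect was 0.85 ± 0.12 (limma adjusted p = 0.00338), with 0.77, 0.82 and 0.96 in LT-HSC, MPP3 and MPP4. None of the 3 populations passed by itself for Usp37 (limma adjusted p = 0.0707, 0.274 and 0.103). Its call was lost without WT animal 2 (adjusted p = 0.0552), without MPP3 (0.145), without MPP4 (0.0531), with 1 mean per animal (0.0808, or 0.0714 with the number as a block) and with the counts of an animal summed and tested by edgeR (0.215), while the effect stayed between 0.76 and 0.97 over all settings.

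Dock10, a guanine nucleotide exchange factor for the small GTPases Cdc42 and Rac that is abundant in lymphocytes, lies on chromosome 1 from 80501073 to 80758527, 11.02 Mb from Ikzf2. LT-HSC had 127.07, 103.27 and 109.27 CPM of Dock10 in KO libraries, against 374.58, 306.99 and 360.10 CPM in the WT libraries. MPP3 had 311.38, 409.22 and 350.50 CPM in KO, against 641.51, 529.12 and 564.66 CPM in WT, and MPP4 had 529.59, 589.75 and 559.50 CPM in KO, against 977.01, 804.01 and 830.70 CPM in WT. In both genotypes the level was lowest in LT-HSC and highest in MPP4. The average log2 effect was -0.99 ± 0.08 (limma adjusted p = 2.15e-06), a level in KO cells of 0.504 times that in WT cells. Dock10 also had the smallest p of all named genes for a difference between populations: the effect was -1.62 in LT-HSC, -0.70 in MPP3 and -0.63 in MPP4, with an unadjusted p of 5.34e-06 and a limma adjusted p of 0.0872. The average thus stands for a larger effect in LT-HSC and smaller ones in the progenitors, a difference that did not pass after adjustment. The call of Dock10 was lost under 1 of 23 settings, with the counts of an animal summed and tested by edgeR (adjusted p = 0.134).

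Selp encodes P-selectin, the adhesion receptor that platelets and endothelium expose when activated, and lies on chromosome 1 from 164115264 to 164150026, 94.5 Mb from Ikzf2. LT-HSC had 226.98, 110.15 and 97.51 CPM of Selp in KO libraries, against 39.05, 60.95 and 45.30 CPM in the WT libraries. MPP3 had 303.39, 221.43 and 184.46 CPM in KO, against 79.17, 99.43 and 113.43 CPM in WT. MPP4 had 62.45, 63.33 and 48.54 CPM in KO, against 6.47, 9.64 and 16.97 CPM in WT. KO animal 1 held the highest level in LT-HSC and MPP3, and the lowest KO library was above the highest WT library in each population. The average log2 effect was 1.77 ± 0.23, or 3.41-fold (limma adjusted p = 0.00173), with 1.54, 1.27 and 2.50 in LT-HSC, MPP3 and MPP4 and no call for the difference between them (adjusted p = 0.743). Selp did not pass without WT animal 2 (adjusted p = 0.0504), without MPP3 (0.0539), with 1 mean per animal (0.0761, or 0.346 with the number as a block) or with the counts of an animal summed and tested by edgeR (0.220).

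Rbm5, an RNA-binding protein of the spliceosome, was the 1 gene of the 6 that does not lie on chromosome 1. It lies on chromosome 9 from 107740371 to 107770996. LT-HSC had 165.51, 197.14 and 192.60 CPM of Rbm5 in KO and 275.41, 246.50 and 304.84 CPM in WT. MPP3 had 140.92, 188.78 and 165.19 CPM in KO, against 224.41, 223.66 and 242.92 CPM in WT, and MPP4 had 170.06, 180.66 and 186.21 CPM in KO, against 193.38, 212.02 and 204.20 CPM in WT. The average log2 effect was -0.42 ± 0.07 (limma adjusted p = 0.0358), with -0.59, -0.50 and -0.19 in LT-HSC, MPP3 and MPP4. Of the 6 genes Rbm5 was the least stable: it passed under 10 of 23 other settings. Without WT 1, WT 2, WT 3, KO 1 or KO 3 its adjusted p was 0.142, 0.119, 0.274, 0.0937 and 0.198, and without the LT-HSC libraries WT 2 and WT 3, which carried neutrophil transcripts, it was 0.0881. Without the 3 MPP3 libraries with plasma cell transcripts it was 0.394.

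Since the libraries numbered 1 had fewer detected genes, the difference was also taken within each number, between the means of the 3 populations' log2 CPM in the KO and the WT animal of that number. For Ikzf2 it was -2.12, -2.02 and -1.30 in numbers 1, 2 and 3, for Wdfy1 3.46, 3.58 and 3.98, and for Selp 2.58, 1.57 and 1.11. For Usp37 it was 0.96, 0.93 and 0.67, for Dock10 -1.16, -0.80 and -0.99, and for Rbm5 -0.53, -0.27 and -0.45. Since the KO and WT libraries of these genes do not overlap, the sign of each of these values is fixed beforehand, and only their size can be read.

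RefSeq promoter windows of the build GRCm38.p6 were found for 4 of the 6 genes, and they are shown because GGGAA is the core that Ikaros-family proteins bind. Each window is 300 bases around a transcription start, written 5′ to 3′ on the gene's strand, with GGGAA or its reverse complement TTCCC in capitals. For Dock10, which has 2 windows, the one at the outer end of the gene is given. The window of Usp37 lies inside the span of the deposited gene, far from its outer end at 74544284. It overlaps the span of Cnot9, which begins at 74506058. Whether it holds the main start of Usp37 was not tested.
Dock10, chr1:80758504-80758803, minus strand: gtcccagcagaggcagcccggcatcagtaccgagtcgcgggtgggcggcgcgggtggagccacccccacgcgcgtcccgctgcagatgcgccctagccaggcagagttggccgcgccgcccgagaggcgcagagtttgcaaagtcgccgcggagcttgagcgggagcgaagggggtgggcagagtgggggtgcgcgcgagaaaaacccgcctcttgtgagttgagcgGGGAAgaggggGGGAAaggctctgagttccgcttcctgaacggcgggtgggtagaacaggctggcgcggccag
Selp, chr1:164115014-164115313, plus strand: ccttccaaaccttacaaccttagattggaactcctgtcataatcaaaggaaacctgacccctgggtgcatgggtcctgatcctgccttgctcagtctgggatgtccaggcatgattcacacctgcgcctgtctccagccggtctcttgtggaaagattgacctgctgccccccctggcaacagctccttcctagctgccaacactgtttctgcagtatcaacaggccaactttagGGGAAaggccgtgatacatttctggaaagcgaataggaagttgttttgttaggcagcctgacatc
Usp37, chr1:74505772-74506071, minus strand: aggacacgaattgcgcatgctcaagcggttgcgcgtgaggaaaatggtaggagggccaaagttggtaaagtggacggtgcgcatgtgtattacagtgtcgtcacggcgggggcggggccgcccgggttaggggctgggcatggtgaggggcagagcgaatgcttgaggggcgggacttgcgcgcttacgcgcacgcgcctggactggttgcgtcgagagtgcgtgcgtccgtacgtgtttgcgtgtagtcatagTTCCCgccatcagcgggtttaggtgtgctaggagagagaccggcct
Rbm5, chr9:107770953-107771252, minus strand: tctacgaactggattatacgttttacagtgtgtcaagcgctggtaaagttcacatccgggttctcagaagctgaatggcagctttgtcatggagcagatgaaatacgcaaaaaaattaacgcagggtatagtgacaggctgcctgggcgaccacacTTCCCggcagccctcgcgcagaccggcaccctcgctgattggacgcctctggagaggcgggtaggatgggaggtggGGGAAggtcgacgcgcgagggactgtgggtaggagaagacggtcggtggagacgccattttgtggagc
On both strands together the core occurred 2 times in the window of Dock10, 1 time in that of Selp, 1 time in that of Usp37 and 2 times in that of Rbm5. GGGAA on either strand was held by 62.7% of the 32851 promoter windows in the table, so that its presence in these is the common case. The longer TGGGAA, held by 25.6% of all windows, was in none of the 4. A match of letters is not a measured binding site.

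Of the 6 genes 5 lie on chromosome 1, and 4 of them, Ikzf2 included, lie within 20 Mb of Ikzf2. Leaving Ikzf2 out, 251 tested genes lay in that window, and 3 of them passed (1.2%). On the rest of chromosome 1 it was 1 of 811 (0.123%) and on the other chromosomes 1 of 15262 (0.00655%). With the number as a block it was 10 genes in the window (3.98%), 6 on the rest of chromosome 1 (0.74%) and 65 on the other chromosomes (0.426%). At an unadjusted p under 0.05 the window held 29 genes (11.6%), 10 higher and 19 lower, against 6.54% on the rest of chromosome 1 and 6.77% on the other chromosomes. KO and WT libraries lay apart in all 3 populations for 7 genes of the window (2.79%), the 3 that passed among them. On the rest of chromosome 1 this held for 4 genes (0.493%), and on the other chromosomes for 0.183% of the genes. The median size of the average log2 effect, without its sign, was 0.20 in the window, 0.18 on the rest of chromosome 1 and 0.15 elsewhere. These comparisons by position were not tested. A deleted gene carries its flanking stretch of chromosome with it when a mutant line is crossed, and since the strain background is not given here, an effect of the missing protein and an effect of the flanking stretch cannot be told apart for the genes of this window.

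**Figure D2:**
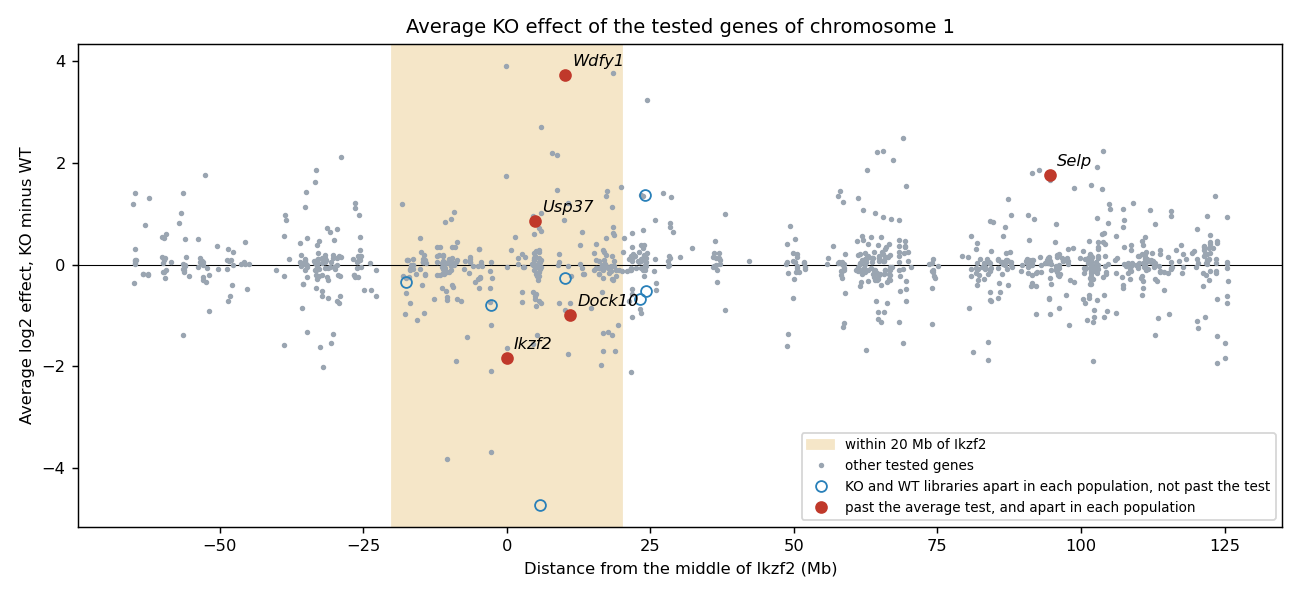
Average log2 effect, KO minus WT, of every tested gene of chromosome 1 against its distance from the middle of Ikzf2 in Mb. Filled points are the 5 genes past the test, open circles genes that did not pass but whose KO and WT libraries lay apart in each population, and the band marks 20 Mb on either side, which holds 4 of the 5 filled points.

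Further genes of the window, named after their values had been seen, lay apart in all 3 populations without passing the test. Acadl, the mitochondrial long-chain acyl-CoA dehydrogenase, lies at -2.76 Mb from Ikzf2, towards lower coordinates. Its LT-HSC libraries had 97.22, 91.87 and 143.50 CPM in KO, against 159.67, 152.75 and 159.60 CPM in WT, its MPP3 libraries 86.01, 88.26 and 157.48 CPM in KO, against 174.81, 209.85 and 185.10 CPM in WT, and its MPP4 libraries 82.23, 74.94 and 166.07 CPM in KO, against 216.04, 197.98 and 187.52 CPM in WT. KO animal 3 was nearest to WT in all 3 populations, and the average log2 effect was -0.79 ± 0.14 (limma adjusted p = 0.072, and 0.0140 with the number as a block). Stat4, a transducer of interleukin-12 signals, averaged 73.7 CPM in KO, against 94.0 CPM in WT (-0.34 ± 0.07, limma adjusted p = 0.178, and 0.0147 with the number as a block). Speg, a muscle kinase, was weak, with means of 0.386 CPM over KO libraries and 3.26 CPM over WT libraries (-4.72 ± 1.08, limma adjusted p = 0.225, and 0.0492 with the number as a block), with 0 reads in some KO libraries, so that this fitted value depends on the prior count. Mrpl44, a mitochondrial ribosomal protein, averaged 60.4 CPM in KO, against 71.8 CPM in WT (-0.26 ± 0.07, limma adjusted p = 0.475). Its start at 79776018 lies inside the end of Wdfy1, and with the strand setting not given, reads of the 2 genes may not have been separated there.

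The average was also set against each population, to ask whether it hides effects that differ. In the same model 25 genes were higher and 8 lower in LT-HSC (0.202% of tested genes), 1 higher and 1 lower in MPP3 (0.0123%) and 1 higher and 2 lower in MPP4 (0.0184%). The test of a difference in the KO effect between populations gave 0 genes by limma, with 1064 genes (6.52%) at an unadjusted p under 0.05. EdgeR also gave 0 and DESeq2 29 (0.189%). Beside Dock10 the gene with the smallest p among those named was Itsn2, a scaffold of endocytosis. LT-HSC had 133.64, 190.73 and 163.18 CPM of Itsn2 in KO and 271.79, 245.63 and 244.89 CPM in WT, and MPP3 had 102.79, 125.94 and 99.10 CPM in KO, against 155.95, 177.16 and 159.14 CPM in WT. In MPP4 the groups overlapped, with 170.32, 217.66 and 178.03 CPM in KO, against 160.93, 183.90 and 176.83 CPM in WT. The log2 effect of Itsn2 was -0.66, -0.59 and 0.10 in LT-HSC, MPP3 and MPP4 (limma adjusted p for the difference 0.339, and 0.202 for the average of -0.38 ± 0.08, or 0.0112 with the number as a block). By single population Itsn2 passed in LT-HSC (limma adjusted p = 0.0204) and not in MPP3 (0.274). Over all tested genes 33.8% had the same sign of effect in the 3 populations.

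**Figure D3:**
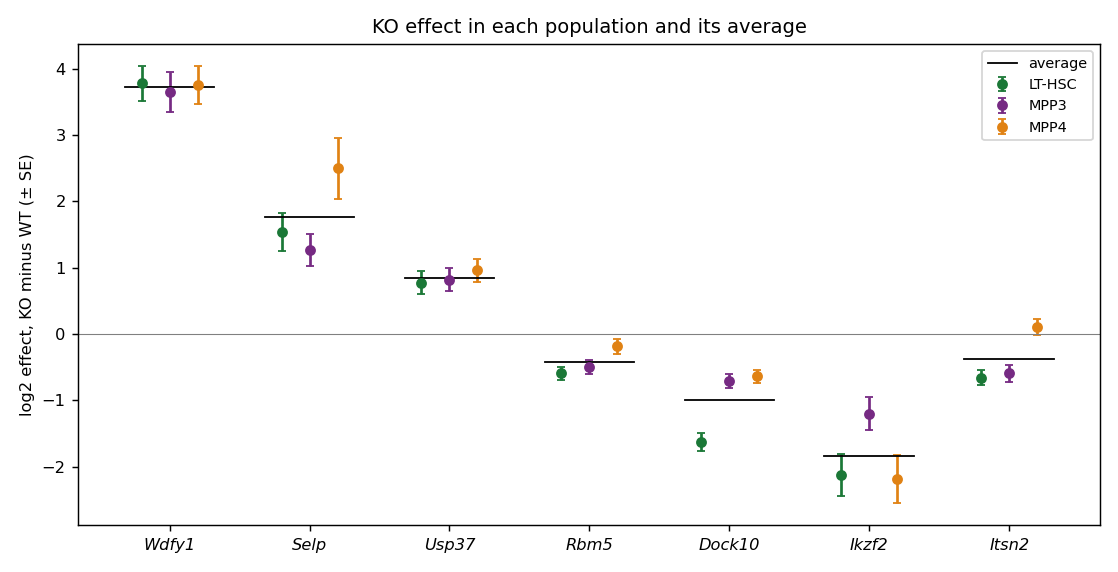
Log2 effect, KO minus WT, in each population with its standard error, and the average as a line, for the 6 genes past the test and Itsn2. The 3 estimates of Wdfy1 and of Usp37 lie close together, that of Dock10 in LT-HSC (-1.62) lies below those in the progenitors, and Itsn2 is near 0 in MPP4.

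Gene lists were described by the signs and the median of the average effect, beside all tested genes, of which 8641 (52.9%) were above 0 with a median of 0.01. No set test was run on the effects of the members. The summed level of a list, in which abundant members weigh most, was compared over the animals by an exact permutation test. In the megakaryocyte and platelet list 34 of 45 tested members were above 0 and 11 below, with a median log2 effect of 0.20, and 1 member, Selp, passed as higher. With the number as a block 2 were higher, Selp and Zfp385a (adjusted p = 0.0286), and 1 lower, Thbs1 (0.0408). The median was 0.25 in LT-HSC, 0.28 in MPP3 and 0.10 in MPP4. The summed level of the list, averaged over the populations of an animal, was 7290, 7490 and 6770 CPM in KO animals 1, 2 and 3 and 7010, 6300 and 6080 CPM in the WT animals (exact two-sided permutation p = 0.2). KO animal 3 was below WT animal 1, and in MPP4 KO 1 was the lowest of all 6 libraries at 2790 CPM.

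The lymphoid priming genes had 12 of 44 tested members above 0 and 32 below, with a median of -0.18, and none passed in either direction. At an unadjusted limma p under 0.05, 0 members were higher and 5 lower, against 587 higher and 529 lower of all 16325 tested genes. That count was 7 higher and 2 lower in the megakaryocyte and platelet list. It was 7 and 0 in the list of genes rising with age, and 6 and 0 in both the cholesterol synthesis and the proteasome list. The median was -0.05 in LT-HSC, -0.23 in MPP3 and -0.11 in MPP4. The list summed to 8240, 6810 and 6460 CPM in KO animals 1, 2 and 3 and to 8950, 8450 and 7240 CPM in the WT animals (exact two-sided permutation p = 0.2), so that KO animal 1 lay within the WT range. Among the members named was Cd52, a surface glycoprotein of lymphocytes. Cd52 had 41.55, 25.88 and 28.37 CPM in MPP3 KO, against 36.28, 41.59 and 39.81 CPM in MPP3 WT, and 103.88, 58.04 and 53.46 CPM in MPP4 KO, against 89.23, 89.78 and 75.95 CPM in MPP4 WT. In both populations KO 2 and KO 3 were the lowest libraries while KO 1 lay within or above the WT range. In LT-HSC Cd52 was weak, at 1.2, 1.18 and 0.59 CPM in KO, against 2.38, 2.54 and 5.01 CPM in WT, with no overlap. The log2 effect was -1.81, -0.32 and -0.30 in LT-HSC, MPP3 and MPP4, and the average was -0.81 ± 0.33 (limma adjusted p = 0.665), or -0.30 without LT-HSC. The mature B and plasma cell genes, whose sums stood apart in the 3 MPP3 libraries named above, had 11 of 17 tested members below 0 and a median of -0.55, and 5 listed genes are on both lists. The part of these transcripts in the lymphoid counts was not tested.

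Genes known to rise in stem cells with age had 23 of 33 tested members above 0, 10 below and a median of 0.63, the highest of the lists. By population the median was lower, at 0.56 in LT-HSC, 0.19 in MPP3 and 0.23 in MPP4. Selp, which is also a megakaryocyte gene, was the 1 member that passed, and the lists share 8 genes. The sum was 1760, 1670 and 1420 CPM in KO animals 1, 2 and 3 and 1300, 1120 and 1110 CPM in the WT animals, with no overlap (exact two-sided permutation p = 0.1, the smallest this design allows). Most of that level came from LT-HSC, at 4280, 3950 and 3460 CPM in KO, against 3170, 2700 and 2730 CPM in WT. In MPP4 the groups overlapped, at 212, 357 and 256 CPM in KO, against 215, 203 and 195 CPM in WT. Selp alone averaged 147 CPM in KO and 52.3 CPM in WT, of list means of 1610 and 1180 CPM, so part of the gap was this called gene. How the rest of the gap divided over single genes, such as Vwf below, was not tested. Vwf, the platelet adhesion protein, had 1247.15, 1026.36 and 1173.43 CPM in LT-HSC KO and 561.67, 597.02 and 666.58 CPM in LT-HSC WT. It passed in LT-HSC alone (0.90, limma adjusted p = 0.0114), while its average log2 effect of 0.75 ± 0.32 did not pass (limma adjusted p = 0.688). The stroma and endothelium list also holds Vwf, and summed to 996, 917 and 910 CPM in the KO animals and 732, 737 and 669 CPM in the WT animals (exact two-sided permutation p = 0.1). Vwf alone averaged 397 CPM in KO and 210 CPM in WT, of list means of 941 and 713 CPM, so most of that gap was Vwf. The median of the list was 0.25, with 7 of 13 tested members above 0, and by population 0.17 in LT-HSC, -0.01 in MPP3 and -0.16 in MPP4.

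Stem cell identity genes were 12 above and 18 below 0 of 30, with a median of -0.06 and none past the test. Mllt3, a regulator of stem cell maintenance, had 165.51, 192.91 and 170.22 CPM in LT-HSC KO and 247.52, 280.86 and 250.89 CPM in LT-HSC WT. It was lower in every KO library of LT-HSC and passed in that population alone (-0.55, limma adjusted p = 0.0178). Its average effect of -0.38 ± 0.11 did not pass (limma adjusted p = 0.475). Txnip, a thioredoxin inhibitor of quiescent cells, stood at -0.34 ± 0.10 (limma adjusted p = 0.475). The other members of the Ikaros family did not pass. Ikzf1, which encodes Ikaros, was level, at 230 CPM in both genotypes and a log2 effect of 0.01 ± 0.07 (limma adjusted p = 0.996). Ikzf3, Ikzf4 and Ikzf5 averaged under 7 CPM in either genotype, with log2 effects of -1.68 ± 1.30, -1.02 ± 0.82 and 0.09 ± 0.39 (limma adjusted p = 0.888, 0.888 and 0.986). Of the NuRD complex, the chromatin partner of the family, 9 of 14 members were above 0 and 5 below (median 0.03, none past the test).

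Several lists leaned one way by small steps. Of the cell cycle genes 36 of 40 were above 0 (median 0.18), of the cholesterol synthesis genes 24 of 25 (0.21), of the proteasome subunits 30 of 31 (0.12), of the MHC genes 18 of 22 (0.10), of the interferon response genes 26 of 35 (0.09) and of the ribosomal protein genes 65 of 81 (0.13). None of their members passed the test, E2f1 and Ly6e did with the number as a block, and genes of one list are not independent of each other. The animals overlapped in most of the sums. Cell cycle genes summed to 8870, 5980 and 7720 CPM in the KO animals and 6980, 6100 and 7240 CPM in the WT animals, with KO animals 1 and 2 at the 2 ends of the range (exact two-sided permutation p = 0.5). Proteasome genes summed to 6540, 5370 and 5930 CPM in the KO animals and 5520, 5380 and 5730 CPM in the WT animals (exact p = 0.4), and MHC genes to 8830, 8690 and 9470 CPM in KO, against 7970, 8680 and 8670 CPM in WT (exact p = 0.1). For the cholesterol synthesis, interferon response and ribosomal protein sums the exact two-sided permutation p was 0.2, 0.4 and 0.9. The ribosomal protein list had a median of 0.26 in LT-HSC, 0.19 in MPP3 and -0.10 in MPP4. In the same order the cholesterol synthesis list had 0.44, 0.12 and 0.08 and the proteasome list 0.20, 0.12 and 0.01. The cell cycle list was more even, at 0.18, 0.20 and 0.21.

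**Figure D4:**
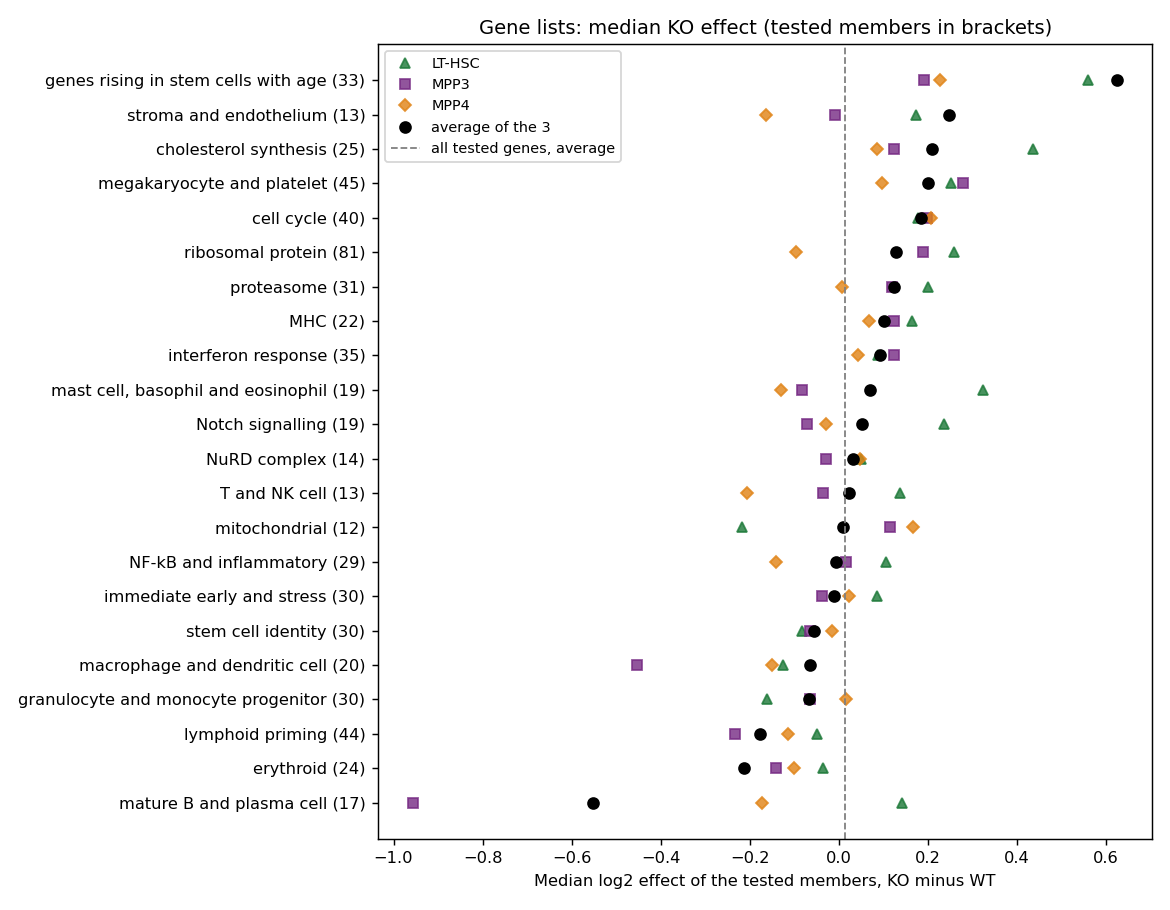
Median log2 effect, KO minus WT, of the tested members of each list with at least 10 of them, averaged over the populations and in each of them, with the average over all tested genes as a dashed line. Most medians lie between -0.25 and 0.25. Genes rising with age are the highest at 0.63 and mature B and plasma cell genes the lowest at -0.55. The mature neutrophil list, at -1.36, is off this scale and not drawn.

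Members of these lists with the smallest p were E2f1, a transcription factor of S-phase entry (0.43 ± 0.14, limma adjusted p = 0.516, and 0.0236 with the number as a block), and Mvk, mevalonate kinase (0.47 ± 0.14, limma adjusted p = 0.492). Psmb2, a catalytic-core subunit of the proteasome, stood at 0.21 ± 0.07 (limma adjusted p = 0.566). Ly6e, an interferon-induced surface protein, had a mean of 1080 CPM over KO libraries and 918 CPM over WT libraries (0.24 ± 0.05, limma adjusted p = 0.225, and 0.0365 with the number as a block). Ier3, an immediate early gene of stress responses, averaged 29.2 CPM in KO, against 21.0 CPM in WT (0.48 ± 0.12, limma adjusted p = 0.261, and 0.0247 with the number as a block). In both Ly6e and Ier3 the KO libraries lay above the WT libraries in each of the 3 populations, and neither passed without the block. The immediate early list as a whole was even, with 15 above and 15 below 0, and so were the NF-kB genes, with 14 above and 15 below.

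Erythroid genes were 9 above and 15 below 0 (median -0.21) and granulocyte and monocyte progenitor genes 13 above and 17 below (median -0.07), with none past the test in either list. Hbb-bt, an adult beta globin, was highest in WT animal 3 in all 3 populations, at 15.68, 27.12 and 12.86 CPM in LT-HSC, MPP3 and MPP4, and its average effect was -1.22 ± 0.40 (limma adjusted p = 0.516, and 0.0384 with the number as a block). All 14 tested mature neutrophil genes were below 0, with a median of -1.36 that was -3.16 in LT-HSC, -0.11 in MPP3 and -0.59 in MPP4. S100a9, a neutrophil calcium-binding protein, had 1.10, 0.79 and 0.18 CPM in LT-HSC KO and 1.17, 5.29 and 31.08 CPM in LT-HSC WT. WT 1 was at the KO level and WT 3 far above it. Sdc1, the plasma cell proteoglycan CD138, was lower in each KO library than in each WT library of its population. It had 71.61, 64.17 and 75.11 CPM in MPP4 KO and 170.57, 117.40 and 153.10 CPM in MPP4 WT. In MPP4 alone Sdc1 passed (-1.04, limma adjusted p = 0.0300), while its average effect of -0.93 ± 0.20 did not pass (limma adjusted p = 0.202, and 0.00616 with the number as a block). In bulk libraries fewer cells of a type and less RNA per cell cannot be told apart.

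Of the remaining lists, T and NK cell genes were 7 above and 6 below 0, macrophage and dendritic cell genes 9 and 11, mast cell, basophil and eosinophil genes 10 and 9, Notch signalling genes 12 and 7 and mitochondrial transcripts 7 and 5, with none past the test. Xist was read in all libraries and Y-linked genes had at most 2 reads in any library; the average effect on Xist was -0.03 ± 0.20 (limma adjusted p = 0.994).

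**Figure D5:**
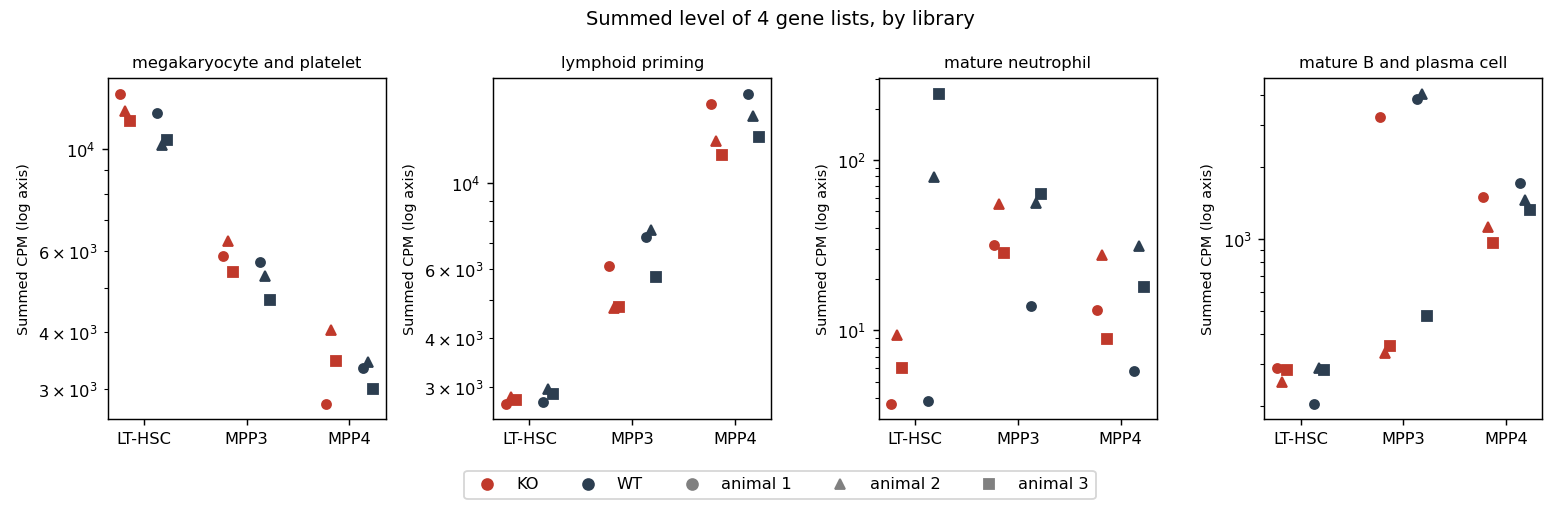
Summed CPM of 4 lists in each library on a log axis, KO left of WT, with the symbol giving the animal's number. The KO and WT points of the megakaryocyte and platelet list and of the lymphoid priming list overlap in each population, while 2 LT-HSC WT libraries (79.0 and 244 CPM) stand out in the neutrophil list and 3 MPP3 libraries (3230 to 4050 CPM) in the B and plasma cell list.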

How the data were processed

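Poly(A) RNA of the 18 sorted libraries was sequenced from SMART-Seq v4 cDNA and Nextera XT libraries, per the labels' protocols. Raw counts for each Ensembl gene were deposited by the authors and were the input to every value here. Tools named in the submitters' processing notes are bcl2fastq 2.17.1.14 and DESeq, with the build mm10. For aligner, counter, annotation and strand setting, none is given in the sources used, so overlapping, antisense and near-identical genes are uncertain. A further 36 per-sample columns of the authors' normalized values were not used.

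Genes were kept by edgeR 4.0.16 filterByExpr over the 6 groups (16325 of 29437) and scaled by TMM (R 4.3.3). Limma 3.58.1 voom was fitted with 1 mean per group and the animal as a random block (correlation 0.188). It was the main test rather than edgeR because edgeR and DESeq2 1.42.0 cannot link the libraries of an animal; both were run beside it. Log2 effects are ± SE and levels are CPM after TMM scaling. List sums were compared over animals by exact permutation, without correction over the lists. Same-numbered KO and WT animals deviated together, with correlations of 0.193, 0.104 and 0.117 in their means over populations, over the minimum of 0.1 set for pairing, so the fit with the number as a block is given where it changes a call. P-values of the main fit pool the 18 libraries, with 1 animal correlation shared by all genes. They rest on 12 residual and 5.55 prior degrees of freedom, and do not measure the spread between 3 animals per genotype alone. Those of the unlinked edgeR and DESeq2 fits take the 9 libraries of a genotype as separate animals. Only the fits to 1 mean or 1 sum per animal use the spread between animals. Selp, Usp37 and Rbm5 passed in neither of these. Named genes were those past the test with the same sign in each population and at least 5 CPM, and per list up to 4 members past the test or else the 2 with the smallest p; some of these are given by list only. Members, lists and tests were chosen with earlier results of these data known. A gene chosen by the rule for named genes is not reported here.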

Additional observations from a re-analysis of the deposited data

How the results depend on the processing

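In all, 23 other settings were run. Quality weights, DESeq2 size factors, upper quartile scaling and a minimum of 1 CPM in 9 libraries each gave the same 6 genes. Against 3 higher and 3 lower genes, edgeR gave 24 and 17, DESeq2 123 and 163, no filter on low counts 17 and 7, and the 6 libraries numbered 1 left out 14 and 5. One mean per animal gave 1 and 2 and animal sums with edgeR 1 and 1. Leaving out 1 animal gave 1 to 15 higher and 2 to 6 lower genes: without KO 1 there were 15 and 6, without KO 3 7 and 3, without KO 2 4 and 5 and without WT 2 1 and 2. The average without LT-HSC gave 3 and 1 genes, without MPP3 1 and 2 and without MPP4 6 and 4. Leaving out the neutrophil-bearing LT-HSC libraries or the plasma cell-bearing MPP3 libraries gave 3 and 2; each leaves 1 WT library in its group, taken to vary like the others. The difference between populations gave 0 genes, against 29 by DESeq2, 1 with quality weights, 26 with no filter, 1 with the 1 CPM minimum and 4 without LT-HSC WT 2 and WT 3. Ikzf2 did not pass without LT-HSC (-1.68, adjusted p = 0.0543). Il5ra, a weak gene not past any test, turned to 0.19 without MPP4. Xist, near 0, turned to 0.0351 with quality weights, 0.0297 without LT-HSC, 0.251 without LT-HSC WT 2 and WT 3, 0.0357 without the 3 MPP3 libraries and 0.0794 without the libraries numbered 1, and ranged from -0.173 to 0.164 with 1 animal left out. The causes of these shifts were not tested. The list medians of the stem cell identity, granulocyte, interferon, immediate early, NF-kB, Notch, NuRD, erythroid, ribosomal, mitochondrial, Ikaros, stroma and other blood cell lists other than neutrophils changed sign under at least 1 setting; those of the megakaryocyte (0.10 to 0.30), lymphoid priming (-0.21 to -0.06), age (0.38 to 0.64), cell cycle, cholesterol, proteasome, MHC, sorting gate and neutrophil lists did not.

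With the replicate number as a block (replicate block) 50 genes were higher and 32 lower, all 6 among them, and 0 differed between populations. The labels do not say that a number marks a shared litter or day. The deviations of same-numbered KO and WT animals, averaged over populations, passed the minimum set for pairing, and each animal correlated best with its own number, while by single library the 9 correlations ran from 0.008 to 0.097. This check was made after the count with the block had been seen. A fit to 1 mean per animal with the block, added after seeing the data, gave 1 higher and 2 lower genes, with Ikzf2 at -1.81 (adjusted p = 0.0694). The main fit pools the 18 libraries and does not measure the spread between 3 animals per genotype alone. Its median standard error of the average effect was 0.178 over all tested genes. For genes over 10 CPM in both genotypes it was 0.112, so small effects were not detectable.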
